A study of Homo sapiens with 7 samples.

Results

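POU5F1 and NANOG encode transcription factors of the pluripotent state, and their isoforms were followed here in HUES66, an established line of human embryonic stem cells. All rows of the isoform table that carry the gene ID of POU5F1 or NANOG were taken, without regard to their values: 51 rows of POU5F1 and 91 of NANOG, 142 of 386982 isoforms in all. The study used Cas13d, an RNA-guided nuclease that cuts RNA, against single isoforms of the splicing regulator RBFOX2, and counted full-length cDNA reads. There was 1 control library, labelled WT, and 1 library for each of 6 knockdowns, named here by the number in their labels: G3 (RBFOX2 id 178147), G5 (178149), G11 (178136), G12 (178135), G13 (178145) and G14 (178146). All 7 cultures, the control included, are described as piggyBac, a transposon used to insert transgenes, with doxycycline at 1 µg/ml for all of them and a time point of 24 h. The labels do not say which isoform an id denotes or how many clones a culture holds.

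POU5F1, also called OCT4, is a POU-domain protein that binds DNA together with SOX2, and NANOG is a homeobox protein whose promoter is a known target of that pair. Both are needed to keep embryonic stem cells undifferentiated, and both genes are silenced when the cells differentiate. The POU5F1 transcript that starts at the first coding exon encodes the nuclear, pluripotency-associated protein OCT4A. Transcripts that start inside the gene are known as OCT4B-type and encode shorter proteins that lack the OCT4A amino terminus. Both genes have processed pseudogenes, copies of the spliced transcript elsewhere in the genome.

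The control was the smallest library, with 16801842 reads, and G12 the largest, with 26678538. Where 6 values follow for the G libraries, their order is G3, G5, G11, G12, G13 and G14. Each group is 1 library, so differences below have no replicate check. A two-sided p from the doubled tail of an exact permutation of 1 library against 6 could not fall below 0.286. Intervals are 95% intervals and cover counting error only, because each group is 1 library. They take each read as 1 molecule, as the reads carry no molecular identifiers. RBFOX2, the targeted gene, stood at 39.2%, 90.3%, 77.3%, 82.5%, 52.2% and 98.6% of the control in these libraries. Of 8 pluripotent stem cell markers, 7 had rows and all 7 exceeded 1 TPM (reads per 1000000 library reads, with no length term); SOX2 had no row under its gene ID and was not analysed. The summed level of neuroectoderm markers did not exceed 0.238 TPM in any library, with PAX6, SOX1, SIX3 and LHX2 without a row. Endoderm markers summed to at most 1.01 TPM, trophoblast markers to 2.41 TPM and mesoderm markers to 3.59 TPM. Of these lists, SOX17, GATA6, CDX2, CGA, ELF5, MIXL1 and MESP1 had no row. An isoform is listed only if the control holds a read of it, so marker isoforms read only in G libraries are not in these sums. Low sums therefore do not show that such markers were absent from the G libraries. The fibroblast list summed to between 825 and 945 TPM, nearly all of it THY1, which human embryonic stem cells also express, while COL1A1 stood at 16.4 TPM in the control, 30.3 TPM in G3, 16.7 TPM in G5 and between 1.58 and 6.82 TPM in the other 4. COL1A2, the other collagen of the list, stood at 11.3 TPM in the control and at 8.24, 13.3, 7.63, 4.65, 2.63 and 4.63 TPM in the G libraries, so the pair differed in direction in G3. In bulk RNA, fewer cells of a type and less RNA per cell cannot be told apart.

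Both members were lower in every G library than in the control. POU5F1 held 15382 reads in the control and 10500, 14185, 10523, 14603, 12899 and 7907 in the G libraries. That was 915 TPM in the control and 588, 557, 505, 547, 566 and 377 TPM in G3, G5, G11, G12, G13 and G14. The control was thus the highest of the 7 libraries and G14 the lowest, with the other 5 between 505 and 588 TPM. Relative to the control, POU5F1 was 64.3% (62.7 to 65.9), 60.9% (59.5 to 62.3), 55.2% (53.8 to 56.6), 59.8% (58.4 to 61.2), 61.8% (60.4 to 63.3) and 41.2% (40.1 to 42.4) in the G libraries. In the order of the levels, G13 and G5, and G5 and G12, were neighbours whose ratio had an interval that held 100%. The other neighbours differed beyond counting error.

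NANOG held far fewer reads: 168 in the control and 86, 141, 94, 113, 81 and 73 in the G libraries. In TPM these were 10.0 in the control and 4.82, 5.54, 4.51, 4.24, 3.55 and 3.49 in G3, G5, G11, G12, G13 and G14. The control was again highest, and the 6 G libraries lay between 3.49 TPM in G14 and 5.54 TPM in G5. NANOG was 48.2% of the control in G3 (36.7 to 62.9), 55.4% in G5 (44.0 to 69.7), 45.1% in G11 (34.7 to 58.4), 42.4% in G12 (33.1 to 54.1), 35.5% in G13 (26.9 to 46.6) and 34.9% in G14 (26.1 to 46.1). Among the G libraries no neighbours in the order differed beyond counting error. Libraries further apart in the order, such as G5 and G14, were not compared. These NANOG values are sums over unusual isoforms only, and they depended on which isoforms the table lists, as set out below.

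Many genes shared the direction of the members. On the scale of log2(TPM + 0.5), the median ratio over the 6 G libraries was -0.73 for POU5F1 (-1.28 to -0.64) and -1.11 for NANOG (-1.40 to -0.80). Both genes were at least 1.5-fold lower than the control in each G library, and so were 12.3%, 17.2%, 22.5%, 22.6%, 29.1% and 31% of the 7877 genes with a mean of at least 5 TPM. That size did not hold under all settings. Rescaled by the median of ratios, POU5F1 in G13 had a log2 ratio of -0.53, short of 1.5-fold, and with the trend of length and GC content removed only G14 (-0.62) reached it. NANOG fell short in G3 (-0.44), G5 (-0.26) and G11 (-0.53) when isoforms without a read in any G library were left out, an alternative chosen after seeing the data. The percentage of genes that lay below POU5F1 was between 11.3 in G3 and 24.2 in G13, and below NANOG between 5.50 in G3 and 13.3 in G5. POU5F1 order differed from that of the RBFOX2 gene total. RBFOX2 was nearest the control in G14, where POU5F1 was lowest, and lowest in G3, where POU5F1 was highest among the G libraries. The RBFOX2 total sums all its isoforms, so it does not give the level of the isoform targeted in a library. A link between these genes was not tested.

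**Figure D1:**
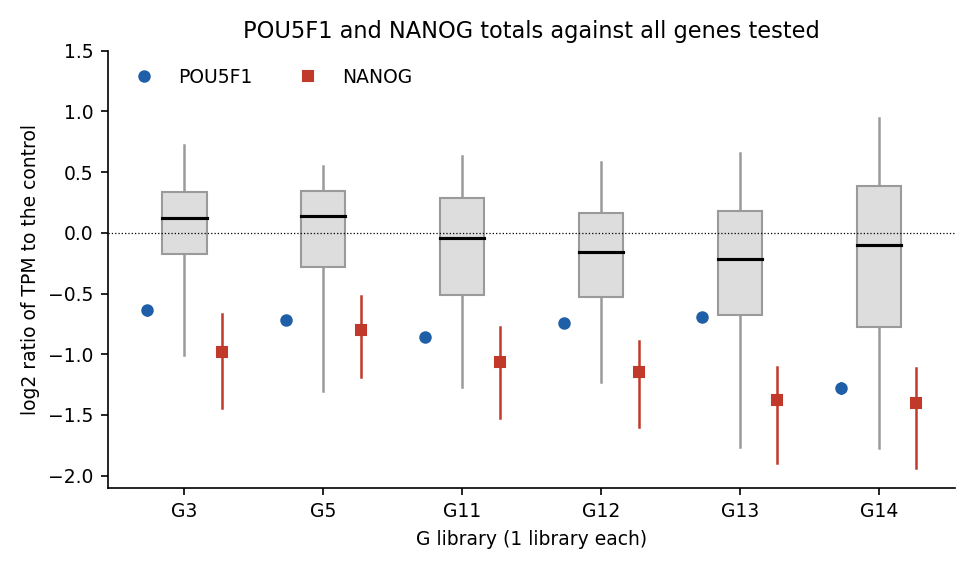
Log2 ratio of TPM to the control (vertical axis, with 0.5 TPM added for the points) in the 6 G libraries (horizontal axis), for POU5F1 (circles) and NANOG (squares) with 95% counting intervals computed without the added 0.5 TPM; those of POU5F1 are shorter than the symbol. Boxes span the 25th to 75th percentile of 7877 genes, lines the 5th to 95th, and bars in the boxes mark the median; both genes lie below the median in all 6 libraries.

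Transcript length and GC content jointly moved with the POU5F1 values. POU5F1 transcripts are short and rich in GC: their mean length of 1442 bases exceeded that of 14.97% of the genes, and their GC content of 57.5% exceeded that of 78.3%. A quadratic trend of log2 ratio on length and GC content, fitted over 7871 genes, had values at the POU5F1 length and GC content of -0.23, -0.46, -0.44, -0.34, -0.41 and -0.65 in the G libraries. With the trend removed, POU5F1 log2 ratios were -0.40, -0.26, -0.42, -0.40, -0.28 and -0.62 in the same order, still below the medians of all genes, which then lay between 0.02 and 0.07. NANOG was taken at its annotated length of 5183 bases, which no decoded isoform reached. With the trend removed, its log2 ratios were -1.22, -1.08, -1.21, -1.12, -1.27 and -1.62 in the same order. The separate parts of length and GC content were not tested.

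The 3 genes whose levels over the 7 libraries were most like those of POU5F1, by Pearson's r of log2(TPM + 0.5) among 5218 genes with a mean of at least 20 TPM, were FTH1 (r = 0.991), HUS1 (0.991) and ELOF1 (0.990). FTH1, the ferritin heavy chain, stood at 3023 TPM in the control and at 1364, 1001, 916, 1011, 1008 and 458 TPM in G3, G5, G11, G12, G13 and G14, so its lowest library was also G14. HUS1, a subunit of a DNA damage checkpoint clamp, ranged from 36.1 TPM in the control to 18.7 TPM in G14. ELOF1, a transcription elongation factor, ranged from 123 TPM to 23.1 TPM in the same libraries. Most like NANOG were MED28, a Mediator subunit (r = 0.973, 211 TPM in the control, 110 in G14), QPRT, an enzyme of NAD synthesis (0.935), and UBE2K, a ubiquitin-conjugating enzyme (0.931). POU5F1 and NANOG had r = 0.876 with each other. Each r rests on the same 7 libraries, of which the single control is the highest for all 8 of these genes, so they are given as descriptions.

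Among the 45 genes of a list of pluripotency-associated genes, 28 besides the members had a mean of at least 5 TPM. The number of those at least 1.5-fold lower than the control was 1, 2, 4, 7, 9 and 8 in the G libraries, and the number at least 1.5-fold higher was 4, 1, 2, 0, 1 and 3. For comparison, 12.3%, 17.2%, 22.5%, 22.6%, 29.1% and 31% of all genes were at least 1.5-fold lower in these libraries. At least 1.5-fold higher were 8.71%, 3.71%, 6.53%, 5.08%, 6.86% and 15.5% of all genes. The median log2 ratio of the 28 genes was 0.19, 0.20, -0.02, -0.31, -0.27 and -0.08, beside 0.12, 0.14, -0.04, -0.16, -0.21 and -0.10 over all genes. The medians of the list thus lay near those of all genes, above them in G3, G5, G11 and G14 and below them in G12 and G13, while both members, summed over all their isoforms, lay below both medians in every library. On the 10 NANOG isoforms read in each of the 7 libraries, NANOG in G12 had -0.12 and lay above both.

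After NANOG, the lowest median ratios of the list belonged to LEFTY1 (-0.87), an antagonist of Nodal signalling, and TERF1 (-0.84), a telomere-binding protein. LEFTY1 stood at 445 TPM in the control and 462, 335, 286, 206, 196 and 137 in the G libraries, which unlike POU5F1 and NANOG was not lower in G3. TERF1 stood at 454 TPM in the control and at 468, 288, 228, 250, 257 and 208 TPM in the G libraries. The highest were L1TD1 (1.09), an RNA-binding protein derived from a retrotransposon, STAT3 (0.46), a signal transducer of cytokine receptors, and USP44 (0.45), a deubiquitinase. L1TD1 stood at 18.2 TPM in the control and between 24.9 TPM in G12 and 41.0 TPM in G11.

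Rows of pseudogene copies, which are not part of these sums, held almost no reads. Of 7 genes of the POU5F1 pseudogene family in the name table, 1 had a row, POU5F1B, with 1 read in the control and 1 in G5. None of 11 NANOG pseudogenes had a row. A further 11 rows without a gene ID lay inside NANOG and held 15 reads in the control and 1, 3, 3, 4, 1 and 2 in the G libraries; no such row lay inside POU5F1. How the authors' alignment assigned reads among near-identical copies was not tested. Whether unspliced isoforms, as those of processed pseudogenes may be, could enter the table was not tested either.

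In GENCODE 29 (GRCh38), POU5F1 spans 31164337 to 31180731 of chromosome 6, on the minus strand. The table gives 3 POU5F1 isoforms with a reference transcript ID and 48 with a hashed ID, which stand for isoforms outside the reference and are numbered here by mean share. The hash was found to encode the intron borders, and the introns of all 48 could be read back. Hashed isoforms held only 1.27% of POU5F1 reads, where the median gene had 11.2%.

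ENST00000259915.13, the OCT4A transcript with 5 exons, dominated in every library. It held 14628 reads in the control and 10100, 13686, 9935, 13470, 11785 and 7223 in the G libraries. Its share of POU5F1 was 95.1% in the control (Wilson interval 94.7 to 95.4) and 96.2%, 96.5%, 94.4%, 92.2%, 91.4% and 91.3% in the G libraries. The share was thus above that of the control in G3 and G5 and below it in the other 4. Two-sided Fisher's exact tests on the reads, with Benjamini-Hochberg adjustment over all isoforms and libraries tested, gave an adjusted p under 0.05 in 5 of 6 libraries, against 24.7% of all 105283 such tests. The exception was G11 (adjusted p 0.0588). All such tests include genes down to a mean of 5 TPM, with far fewer reads than POU5F1. Small differences reach a small adjusted p more easily at its depth, so these rates are not a like comparison. None of the 6 shares moved by 10 points, the size required for a call, which 7.1% of all tests met; the largest difference was -3.75 points in G14 (adjusted p 3.72e-26). Such tests compare the reads of pairs of libraries, not the conditions.

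What distinguishes the OCT4A transcript from the internal starts is the sequence that precedes the second exon. The following lines show, for GENCODE 29 transcripts on the minus strand, 15 bases before and 15 after that border, with the bases before it in capitals. The OCT4A line joins the end of exon 1 (31170216 to 31170230) to the start of exon 2 (31166033 to 31166047), and the other line runs through the border without a splice, at chr6:31166033-31166062.
ENST00000259915: CAAAACCCGGAGGAGtcccaggacatcaaa
ENST00000471529: CCTTTTAAAATCCAGtcccaggacatcaaa
The capitals of the OCT4A line are coding exon sequence, whereas those of the second line are intron sequence in OCT4A and end in the AG of its splice site. A read of ENST00000471529 across this border therefore contains bases that no OCT4A read holds. The 3 introns of ENST00000471529 are, however, also the last 3 introns of OCT4A. The table gives 1 start per isoform, so how many of its reads cross this border cannot be seen. Reads of OCT4A that lack its 5′ end would have the same introns, and their part in the internal-start counts was not tested.

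The internal-start isoforms were lower than the control in G3 and G5 but not in G12 and G13, unlike OCT4A. ENST00000471529.6, which starts in the first intron and has 4 exons, held 395 reads in the control and 187, 227, 363, 675, 665 and 391 in the G libraries. In TPM it was 23.5 in the control and 10.5, 8.92, 17.4, 25.3, 29.2 and 18.7 in the G libraries. ENST00000513407.1, which also starts there and keeps the intron after exon 2, held 146 reads in the control and 86, 106, 118, 275, 284 and 159 in the G libraries. Both had their lowest TPM in G5 and their highest in G13. The reads of ENST00000513407.1 were 26.99% of the sum of the pair in the control (23.4 to 30.9) and between 24.5% and 31.8% in the G libraries, so the pair moved together. Hashed isoform 1, at 31164352 to 31167176 with a single intron between the last 2 exons, held 53 reads in the control and 27, 45, 28, 65, 70 and 60 in the G libraries.

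The 10 isoforms with a listed start downstream of exon 1 summed to 604 reads in the control and 302, 384, 512, 1030, 1034 and 615 in the G libraries. They made up 3.93% of POU5F1 in the control (3.63 to 4.25) and 2.88% (2.57 to 3.21), 2.71% (2.45 to 2.99), 4.87% (4.47 to 5.29), 7.05% (6.65 to 7.48), 8.02% (7.56 to 8.50) and 7.78% (7.21 to 8.39) in the G libraries. No interval of a G library held the control's share. As a level, the sum was 47.1% of the control in G3 (40.9 to 54.1), 42.0% in G5 (36.8 to 47.8), 68.4% in G11 (60.7 to 77.0), 107% in G12 (97.0 to 119), 126% in G13 (114 to 140) and 81.7% in G14 (72.9 to 91.5). The 41 isoforms that start in exon 1 were between 39.6% and 65.0% of the control. The higher share in G14 therefore came with a lower level of both kinds, and that in G13 with a higher level of internal starts.

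**Figure D2:**
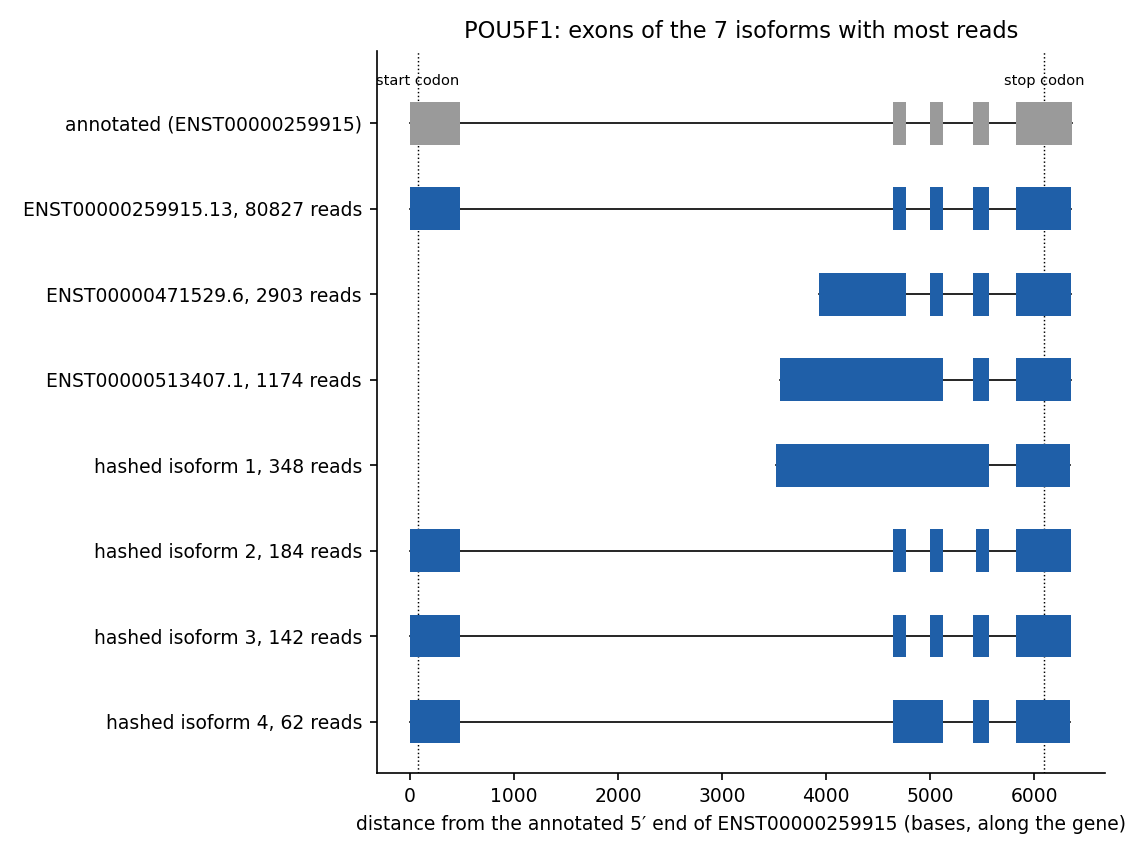
Exons (boxes) of the 7 POU5F1 isoforms with most reads over the 7 libraries, and of the annotated OCT4A transcript in grey, by distance in bases from its 5′ end along the gene (horizontal axis); dotted lines mark its start and stop codons. Of these, 3 isoforms start downstream of the OCT4A start codon, among them ENST00000471529.6 with 2903 reads against 80827 of ENST00000259915.13.

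The same share moved the same way in other genes. The comparison took 2776 genes with at least 100 control reads. Between 1% and 50% of these reads belonged to isoforms with a listed start at least 1000 bases downstream of that of the gene's leading isoform. The median ratio of this share to that of the control was 0.754, 0.865, 1.12, 1.28, 1.48 and 1.36 in the G libraries. POU5F1 had ratios of 0.732, 0.689, 1.24, 1.80, 2.04 and 1.98. The ratio of POU5F1 exceeded 1.5 in G12, G13 and G14, and so did 3.6%, 5.3%, 23.7%, 36.6%, 49.1% and 41.4% of these genes in the 6 G libraries. It lay above the ratio of 77.3%, 75.3% and 79.1% of the genes in those libraries and of 46.97% in G3, 29.9% in G5 and 59.8% in G11. By their listed ends, the internal-start isoforms are also longer than OCT4A, with 1648, 2244 and 2565 spliced bases for the 3 most read against 1410. The part of length in their share was not tested.

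**Figure D3:**
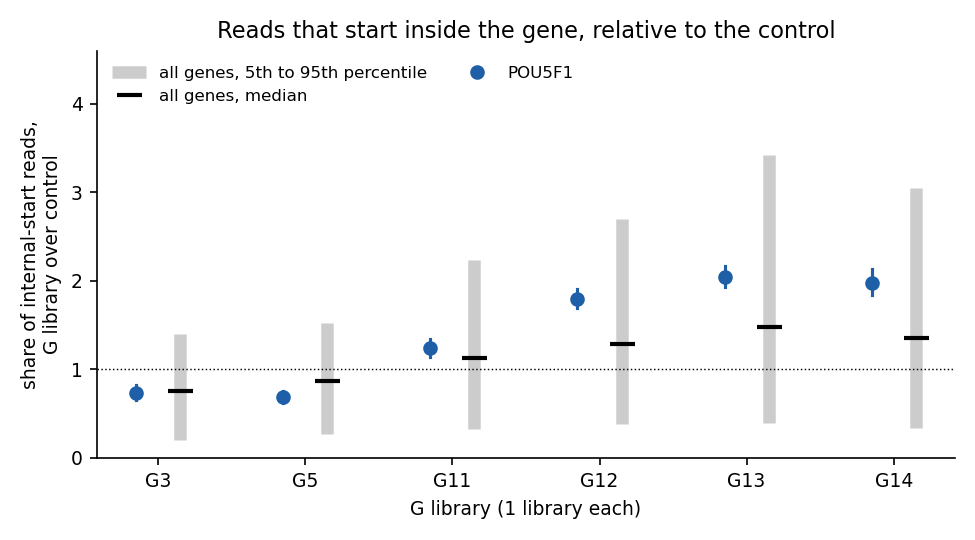
Share of reads in isoforms with a listed start inside the gene, in each G library divided by that of the control (vertical axis), for POU5F1 (circles, with the 95% interval of the G library's share) and for 2776 genes (bars from the 5th to the 95th percentile, dashes at the median). POU5F1 runs from 0.689 in G5 to 2.04 in G13 and lies inside the range of the other genes in all 6 libraries.

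The remaining POU5F1 isoforms were splice variants of the exon 1 start, each with a small share. The most read, hashed isoform 2, began exon 4 at a splice site 27 bases further in, which removes 9 codons without a change of frame. The line below gives the start of exon 4 at chr6:31165239-31165286 on the minus strand, with the bases that this isoform lacks in capitals, which end in AG as a splice acceptor does.
POU5F1 exon 4: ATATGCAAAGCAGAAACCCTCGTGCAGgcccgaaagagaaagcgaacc
Hashed isoform 2 held 39 reads in the control and 18, 31, 21, 38, 16 and 21 in the G libraries. Its share of POU5F1 lay between 0.124% in G13 and 0.266% in G14, and the Wilson interval of each G library overlapped that of the control (0.186 to 0.346). A group of 4 isoforms that ended exon 1 within 4 bases of the annotated border, which shifts the reading frame unless 3 bases are gained or lost, held 30 reads in the control and 26, 40, 27, 38, 28 and 25 in the G libraries. Hashed isoform 4, which keeps the intron between exons 2 and 3, had 3 reads in the control and 15, 10, 10, 6, 11 and 7 in the G libraries. Relative to the control it was 471% in G3 with an interval of 133 to 2537, and the intervals of the other 5 G libraries held 100%. The other 34 chains from exon 1 summed to 78 reads in the control and to between 16 and 39 in each G library; 17 POU5F1 isoforms, with 0.137% of its control reads, had no read in any G library.

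NANOG lies on the plus strand of chromosome 12 at 7787794 to 7799141, and its annotated transcript ENST00000229307 has 4 exons, with the coding sequence from 7789615 to the stop codon at 7795093 to 7795095 and a long 3′ UTR. Its promoter is shown because it carries adjacent matches to the POU and SOX motifs bound by OCT4 and SOX2. The line gives 244 bases before exon 1 (chr12:7789152-7789395, plus strand, RefSeq promoter table, GRCh38.p14), with the matches in capitals.
NANOG promoter: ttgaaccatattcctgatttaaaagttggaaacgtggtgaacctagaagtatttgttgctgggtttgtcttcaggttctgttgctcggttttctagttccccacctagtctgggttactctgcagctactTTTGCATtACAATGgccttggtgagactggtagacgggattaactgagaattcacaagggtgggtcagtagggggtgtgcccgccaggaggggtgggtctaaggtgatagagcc
ATGCAAA was searched on both strands and found at 7789282 to 7789288 on the minus strand, and CATTGT, searched likewise, at 7789290 to 7789295, also on the minus strand; they do not overlap and lie 1 base apart. Of 35116 promoter windows of 300 bases, 4.46% held the first, 10.8% the second and 0.729% both. The table used has no promoter entry for POU5F1. A match is a description of letters, not of binding.

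No NANOG isoform carried a reference ID. All 91 were hashed, as in 1.40% of the genes tested (110 genes), and introns could be read back for 85 of them, which held 749 of 756 reads. No isoform had exactly the 3 annotated introns. The decoded isoforms were 545 to 3635 bases long after splicing, while the annotated transcript has 5183. Annotated introns were nevertheless present within the isoforms: the first was spliced in isoforms with 746 reads, the second in 592 and the third in 414. Of the isoforms, 90 began inside annotated exon 1, and 65 ended within 50 bases of the annotated 3′ end.

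**Figure D4:**
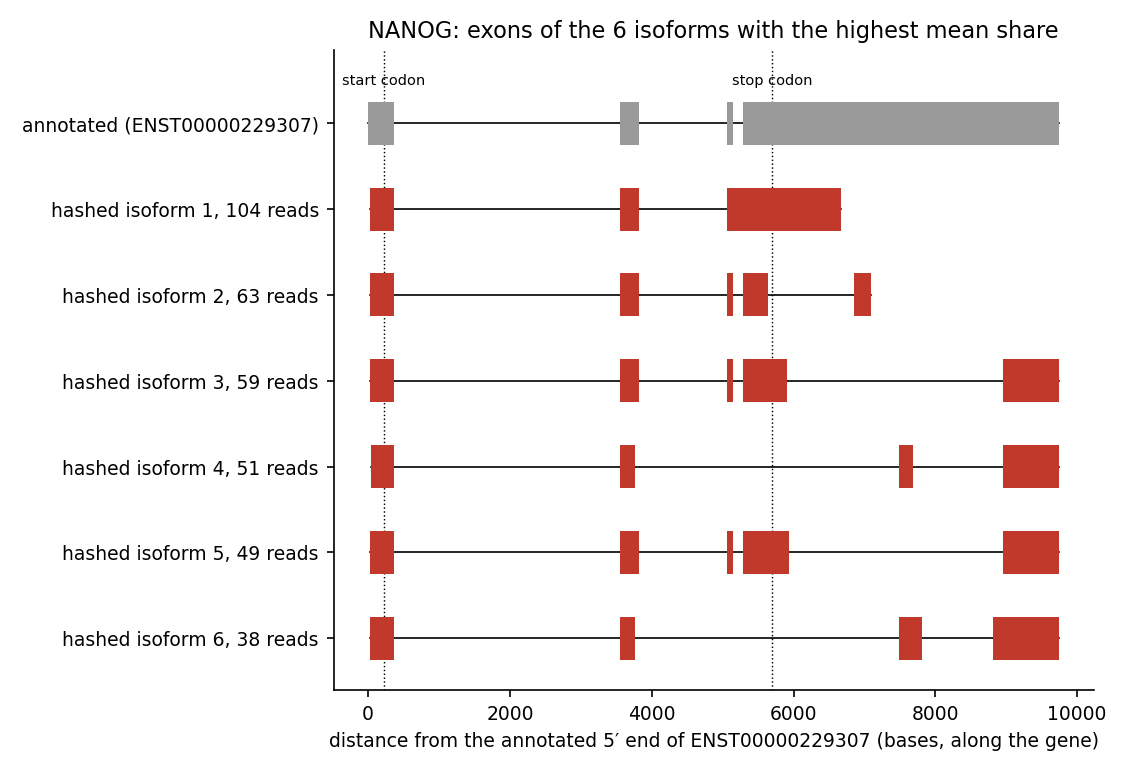
Exons (boxes) of the 6 NANOG isoforms with the highest mean share, and of the annotated transcript in grey, by distance in bases from its 5′ end along the gene (horizontal axis); dotted lines mark its start and stop codons. Hashed isoform 1 (104 reads) keeps the third intron, isoforms 2, 3 and 5 carry an extra gap inside exon 4, and isoforms 4 and 6 pass from inside exon 2 to after the stop codon.

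The isoforms fell into 4 kinds by their introns, plus 6 with other chains and 6 not decoded. The most abundant kind kept the annotated introns, up to a 3-base variant of the exon 4 start, and had an extra junction after the stop codon, which leaves the coding sequence whole. It comprised 40 isoforms with 66 reads in the control and 35, 73, 42, 47, 30 and 35 in the G libraries, a share between 37.0% in G13 and 51.8% in G5. The control's share of 39.3% (32.2 to 46.8) lay inside that range. A second kind, of 17 isoforms, had its extra junction before the stop codon and so loses the coding end. It held 42 reads in the control (25%, interval 19.1 to 32.1) and 8, 21, 17, 27, 25 and 12 in the G libraries, from 9.30% in G3 to 30.9% in G13. The leading junction of this kind removes the last 65 coding bases, the stop codon included.

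The third kind was 1 isoform, hashed isoform 1, which keeps the third intron and ends at 7796059. It was the most read NANOG isoform, with 12 reads in the control and 11, 15, 17, 15, 16 and 18 in the G libraries. Its level was between 78.7% of the control in G12 and 120% in G14, and every interval held 100%, so it was not detectably lower in any G library at this depth. The fourth kind, 21 isoforms, passed from inside exon 2 to a position after the stop codon and lacks exon 3 and the coding part of exon 4. It held 33 reads in the control and 32, 28, 18, 24, 10 and 8 in the G libraries. Relative to the control this kind was 91.3% in G3 (54.3 to 153), and 22.3% in G13 (9.82 to 46.4) and 19.4% in G14 (7.76 to 42.9). The kinds therefore did not share 1 pattern over the libraries, within wide counting intervals.

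The extra junctions are the feature that set most NANOG isoforms apart from the annotation, and the bases at their edges are shown for that reason. Introns removed by the spliceosome nearly always begin with GT and end with AG. Of 69 junctions that no annotated NANOG transcript has, 67 had edges readable from exon sequence. Of these, 13 began with GT and ended with AG, and 54 did not, nor could they be shifted to GT and AG within identical flanking bases. At least 1 junction without GT and AG was present in 77 of the 85 decoded isoforms, with 610 reads. In 14 of the 54 junctions at least 5 bases were identical at both edges. The lines below give 10 bases on each side of the upstream and the downstream edge, on the plus strand from ENST00000229307, with the bases shared by both edges in capitals. They are the most read junction from exon 2, and the most read ones beginning up to 1000 bases after the stop codon and beyond that; the last pair is the most read junction with GT and AG, which are its capitals.
upstream edge at chr12:7793151-7793170: aataCCTCAGCCTCCagcag
downstream edge at chr12:7796874-7796893: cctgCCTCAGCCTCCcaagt
upstream edge at chr12:7795297-7795316: attggatcttCCTGGagaaa
downstream edge at chr12:7798333-7798352: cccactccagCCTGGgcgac
upstream edge at chr12:7797072-7797091: ttttagaCAGtctctctcta
downstream edge at chr12:7798333-7798352: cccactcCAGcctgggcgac
upstream edge at chr12:7795013-7795032: agaccactagGTattttagt
downstream edge at chr12:7798565-7798584: ttcatttcAGtttgtacctg
The first pair, used by hashed isoforms 4 and 6, shares 11 bases and had 112 reads over the 7 libraries. The second, used by hashed isoform 3, shares 5 bases and had 74 reads. The third, the most read of the 69, shares 3 bases and had 124 reads: 21 in the control and 21, 29, 15, 20, 8 and 10 in the G libraries. The junction with GT and AG had 18 reads. Where edges are identical the border can be placed at any of the shared bases, so such positions are uncertain by that many bases. The origin of these junctions was not tested.

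Nearly all splicing from the end of exon 3 used the exon 4 border of ENST00000229307 or one 3 bases further in, which differ by 1 codon. A further border at 7794727, the exon 4 start of ENST00000526286, had 1 read, in the control. A junction from the end of exon 3 to after the stop codon had 4 reads. Junctions from inside exon 2 also lead into exon 4, the most read with 112 reads. The percentages below count only reads at the border of ENST00000229307 and the one 3 bases further in. The line gives the start of exon 4 at chr12:7794679-7794702, with the 3 bases left out by the second form in capitals; they end in AG.
NANOG exon 4: AAGgcctcagcacctacctacccc
The later border was used by 20 of 111 reads in the control (18.0%, interval 11.98 to 26.2) and by 11.6%, 11.7%, 6.78%, 8.11%, 20% and 25.5% in the G libraries. Over all libraries it was 14.3% (11.4 to 17.7), or 69 reads against 414 at the annotated border. The intervals of all G libraries overlapped that of the control.

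The 26 isoforms that did not reach the annotated 3′ end stopped between 7795228 and 7798649. Reads of isoforms that reached it were 60.7% in the control (53.2 to 67.8) and 69.8%, 63.8%, 59.6%, 65.5%, 39.5% and 52.1% in the G libraries. G13 was lowest (39.5%, interval 29.6 to 50.4), the only library whose interval did not overlap that of the control. The table gives 1 end per isoform, so the ends of single reads were not measured. In G13, hashed isoforms 1 and 2, listed as ending at 7796059 and 7796493, held 16 reads each of 81. The control's value also includes isoforms read only there.

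Shares of single NANOG isoforms were tested as for POU5F1. The 5 isoforms with a mean share of at least 5% were hashed isoforms 1 to 5, and 5 of their 30 shares were called, against 7.1% of all tests. In the single G libraries 5.71%, 5.84%, 6%, 6.4%, 9.02% and 9.64% of all tests were called. Hashed isoform 1 was 7.14% of NANOG in the control, 19.8% in G13 (adjusted p 0.0241) and 24.7% in G14 (adjusted p 0.00323). Hashed isoform 2, which loses the coding end, was also 7.14% in the control and 19.8% in G13 (adjusted p 0.0241). Hashed isoform 3 was 4.17% in the control and 14.9% in G11 (adjusted p 0.0187), and hashed isoform 4 was 2.38% and 12.8% in G3 (adjusted p 0.00933). All 5 calls were higher shares in the G library than in the control. The design favours this direction. Isoforms read only in the control, described below, add to the control's NANOG reads alone and lower its share of every other isoform. The isoforms tested were also picked by a mean share over 7 libraries, 6 of them G libraries.

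The NANOG totals and share calls moved with the make-up of the table, which lists an isoform only if the control holds a read of it. Among the 91 NANOG isoforms, 67 had a single read in the control and 50 had no read in any G library. Those 50 held 55 reads, or 32.7% of the NANOG reads of the control. The median gene had 1.26% of its control reads on such isoforms, the median gene with a mean of 5 to 10 TPM 3.73%, and NANOG exceeded 99.9% of the 7877 genes. Reads of NANOG isoforms seen only in G libraries are not in the table used here, so the control total contains isoforms of a kind that the G totals cannot.

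The comparison was therefore repeated, in alternatives chosen after seeing the data, on fewer isoforms. Without the 50 isoforms, the median log2 ratio of NANOG over the 6 G libraries was -0.57 (-0.86 to -0.26) in place of -1.11. With the 10 isoforms that had a read in each of the 7 libraries, it was -0.30 (-0.48 to -0.12). Those 10 held 57 reads in the control and 45, 71, 64, 82, 55 and 48 in the G libraries. They stood at 74.3% of the control in G3 (49.1 to 112), 82.2% in G5 (57.2 to 119), 90.6% in G11 (62.4 to 132), 90.6% in G12 (63.8 to 129), 71.1% in G13 (48.2 to 105) and 67.5% in G14 (45.0 to 101). All 6 values were below the control and all 6 intervals held 100%. Both choices in turn require reads in G libraries, so they leave out isoforms for being low there. Of the NANOG share calls, 0 of 36 remained when isoforms without a G read were left out of every gene, beside 5.71% of all tests; at an unadjusted p under 0.05 there were 2. The differences themselves were smaller but kept their direction: 14.04 points for hashed isoform 1 in G14 (adjusted p 0.0678), 9.25 for isoform 4 in G3 (0.110), 8.70 for isoform 3 in G11 (0.199) and 9.13 for isoforms 1 and 2 in G13 (0.2695). The choice of isoforms by their mean share favours this direction here too. POU5F1 had 99.6% of its control reads on isoforms seen in each of the 7 libraries, and its median log2 ratio on those alone was -0.73.

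**Figure D5:**
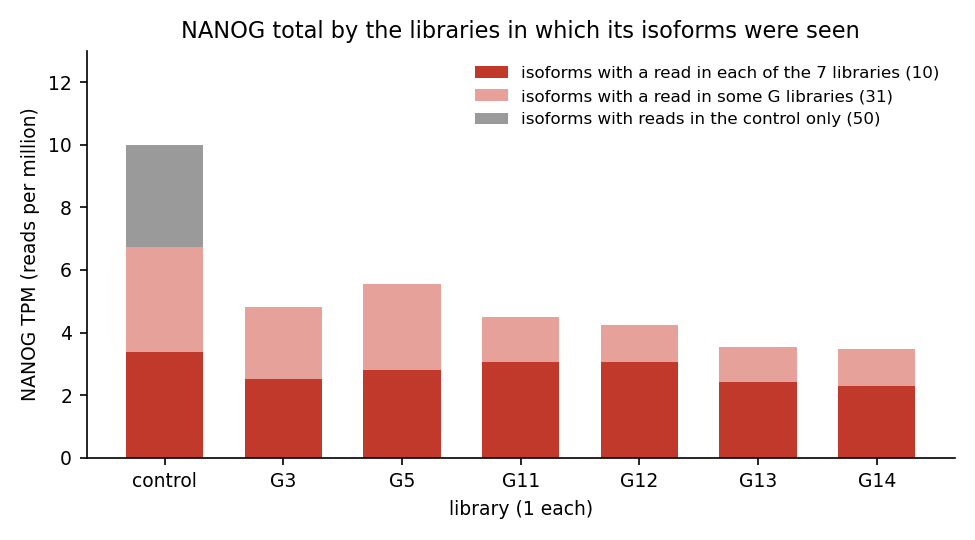
NANOG TPM (vertical axis) in the 7 libraries (horizontal axis), stacked by where the isoforms had reads: in each of the 7 libraries (10 isoforms), in some G libraries (31) or in the control only (50). The control bar holds 55 reads of the last kind, and the lowest segment differs less between libraries than the whole bar.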

How the data were processed

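PacBio MAS-Seq cDNA reads of 7 libraries were analysed from 1 deposited table of isoforms. Per the file headers it holds full-length read counts and TPM per isoform and library, both made by the authors. The deposited TPM equal each count divided by the library total, with no length term, so they are reads per 1000000. Per the submitters' processing notes, minimap2 2.17 and GRCh38 were used; roles and filters are not given in the sources used here. Each of the 386982 listed isoforms had a read in the control, and listed reads made up 98.1% to 98.6% of the G library totals (16801842 to 26678538 reads over the 7 libraries).

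Isoforms were summed by gene ID, with symbols for 14287 of 14294 genes from a name table. Genes with a mean of at least 5 TPM (7877) were compared on the scale of log2(TPM + 0.5). Isoforms with a mean share of at least 5% were tested with two-sided Fisher's exact tests on counts, with Benjamini-Hochberg adjustment, and called at an adjusted p under 0.05 and a difference of at least 10 points. With 1 library per group there was no test between conditions. Shares have Wilson intervals, and ratios of levels have exact Clopper-Pearson intervals of the reads of the pair. Hashed isoform IDs were read back by trying exon borders until the hash matched. Named genes were both members, their isoforms of at least 5% mean share, the 3 genes most like each, the extremes of the pluripotency list, RBFOX2 and pseudogenes with a read; other isoforms, COL1A1 and COL1A2 were named after their values were seen. Members and lists were chosen with earlier results of these data known. Scripts used Python 3.11.15, NumPy 2.4.6, pandas 2.3.3, SciPy 1.17.1 and matplotlib 3.10.9, with GENCODE 29 exons, and were tested on simulated data. Alternatives changed the pseudocount, scaling, reference library, filters, thresholds, libraries included and, chosen after seeing the data, the isoforms summed. The edges of 1 further NANOG junction are not reported here.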

Additional observations from a re-analysis of the deposited data

How the results depend on the processing

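No paired analysis was possible because each group has 1 library. The control is a single library, and its own variation is unknown. The next values, with the median of the other 6 libraries as reference, set the G libraries mostly against each other, lie near 0 by construction and do not bear on the difference from the control: the median log2 ratio of POU5F1 was -0.017 in place of -0.73 and that of NANOG -0.063 in place of -1.11. Values then changed sign for POU5F1 in G3 (0.091), G5 (0.0020) and G13 (0.035), and for NANOG in G3 (0.13) and G5 (0.31). With the trend of length and GC content removed, POU5F1 had -0.40 and NANOG, at its annotated length, -1.21. In alternatives chosen after seeing the data, NANOG had -0.57 without isoforms that had no read in any G library and -0.30 with only those read in each of the 7. Leaving out a G library gave -0.74 to -0.72 for POU5F1 and -1.15 to -1.07 for NANOG.

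Share calls of POU5F1 went from 0 to 5 when any adjusted p under 0.05 counted. Those of NANOG went from 5 to 0 without the same isoforms in every gene, and to between 3 (without G13) and 5 when a G library was left out. At 2-fold, the 28 pluripotency genes had 11 lower and 5 higher values over the 6 libraries, against 31 and 11 at 1.5-fold, of 168. That was 6.55% lower and 2.98% higher at 2-fold, beside 11.3% and 1.45% of the values of all genes, and 18.5% and 6.55% at 1.5-fold, beside 22.5% and 7.72%. Sums over isoforms with a reference ID or with a mean of at least 1 TPM, and share tests in genes of at least 20 TPM, gave no value for NANOG. The depth of 73 to 168 reads limits every NANOG value.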
